A study of Mus musculus with 16 samples.

Results

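The 10 genes Hnf4a, Hnf4g, Cdx1, Cdx2, Gata4, Gata6, Klf4, Klf5, Elf3 and Maf, which encode transcription factors of the enterocyte lineage, were followed through 16 cultures of mouse jejunal enteroids. They were taken by gene name from the 54532 genes counted, and all 10 passed the filter on low counts in every comparison. Enteroids are epithelial cultures grown from intestinal crypts, here differentiated and measured by RNA sequencing, in 4 groups of 4 cultures that came, according to a figure legend, from 4 mice each. Whether untreated and Compound-1-treated cultures shared mice is not given in the sources used here. MYO5BΔIEC enteroids carried Vil1-CreERT2;Myo5b flox/flox and MYO5B(G519R) enteroids Vil1-CreERT2;Myo5b flox/G519R, in which the remaining allele has the point mutation. Both were given 1 µM 4-OH-tamoxifen for 24 h, which activates Cre recombinase driven by the villin promoter and so acts in epithelial cells. The fourth group was MYO5BΔIEC enteroids that received Compound-1, a synthetic agonist of the lysophosphatidic acid receptor LPAR5, at 100 nM for 2 days. By their labels, the MYO5BΔIEC cultures without Compound-1 received vehicle, and they are called untreated here. The paper names PBS as the vehicle for its pig enteroids. The labels of the controls give no genotype beyond "Control" and no treatment, while the methods describe vehicle-treated cultures of the Vil1-CreERT2;Myo5b flox/flox line and a figure legend describes healthy littermates. No tamoxifen is listed for the controls, so its effect and that of losing MYO5B cannot be told apart wherever controls are the reference. The p-values set differences between groups against the spread between these cultures.

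Enterocytes are the absorptive cells of the intestinal villus, and their identity rests on a set of sequence-specific transcription factors that act together on the same genes. The CDX homeobox factors set intestinal against gastric identity, GATA4 marks the proximal small intestine, and the HNF4 nuclear receptors maintain genes of the brush border and of lipid handling. KLF4 and KLF5 are zinc finger factors known for opposite distributions, KLF5 in proliferating crypt cells and KLF4 in differentiated cells, while ELF3 is an epithelial ETS factor and MAF a basic leucine zipper factor of maturing enterocytes.

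The 250 bases before the start site are shown for the members with an entry in the RefSeq promoter table (GRCm38.p6). They were not chosen by a test result. All of these genes passed the test as higher in MYO5B(G519R) enteroids than in control, as did Gata4, which is not shown. Of the 10 genes, 4 had an entry, and Hnf4a had a pair of start sites. The start sites are those of that table and differ from the gene bounds given below. Parts of the windows of Elf3, Cdx2 and the first start of Hnf4a lie inside those bounds. The window of the second start of Hnf4a lies inside them completely. Motifs of the members' own families and of HNF1, a homeodomain factor of the same tissue, were searched on both strands and are in capitals. They were CAAAGTC for HNF4, TTTATNG for CDX, AGATAA for GATA factors, CACACCC for KLF factors, CCCGCCC for KLF and SP factors, AGGAAG for ETS factors and GTTAAT for HNF1. Each sequence runs 5′ to 3′ on the strand of its gene.
Hnf4a, first start, chr2:163506607-163506856, plus strand: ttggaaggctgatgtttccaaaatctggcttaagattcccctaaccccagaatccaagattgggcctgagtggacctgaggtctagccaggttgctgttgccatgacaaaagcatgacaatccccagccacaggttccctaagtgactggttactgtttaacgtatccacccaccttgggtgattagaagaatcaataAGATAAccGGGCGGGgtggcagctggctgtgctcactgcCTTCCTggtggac
Hnf4a, second start, chr2:163546905-163547154, plus strand: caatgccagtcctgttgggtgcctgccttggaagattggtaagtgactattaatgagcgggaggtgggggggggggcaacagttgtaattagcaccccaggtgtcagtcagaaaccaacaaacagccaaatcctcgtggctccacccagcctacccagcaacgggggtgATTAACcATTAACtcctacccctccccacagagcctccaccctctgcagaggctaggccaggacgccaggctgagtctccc
Klf4, chr4:55532476-55532725, minus strand: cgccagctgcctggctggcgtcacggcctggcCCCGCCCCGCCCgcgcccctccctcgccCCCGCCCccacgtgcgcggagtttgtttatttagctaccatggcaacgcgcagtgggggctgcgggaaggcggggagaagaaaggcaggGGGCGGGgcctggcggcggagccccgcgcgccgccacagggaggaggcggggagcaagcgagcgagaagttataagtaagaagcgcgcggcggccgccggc
Elf3, chr1:135258473-135258722, minus strand: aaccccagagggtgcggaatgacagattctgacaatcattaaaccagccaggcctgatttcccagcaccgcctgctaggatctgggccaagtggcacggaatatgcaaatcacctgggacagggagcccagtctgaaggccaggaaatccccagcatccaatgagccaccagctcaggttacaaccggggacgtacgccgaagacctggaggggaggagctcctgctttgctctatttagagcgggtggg
Cdx2, chr5:147307250-147307499, minus strand: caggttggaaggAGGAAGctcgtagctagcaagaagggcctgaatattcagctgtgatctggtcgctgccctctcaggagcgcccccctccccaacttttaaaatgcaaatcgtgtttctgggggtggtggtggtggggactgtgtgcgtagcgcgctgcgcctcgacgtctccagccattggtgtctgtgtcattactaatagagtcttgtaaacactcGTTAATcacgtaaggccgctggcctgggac
The first start of Hnf4a held 3 matches, for GATA, for KLF and SP and for ETS, and its second start held 2 adjacent matches for HNF1. Klf4 held 4 matches, all for CCCGCCC, 2 of which overlapped, in a window with a GC content of 74%. Cdx2 held 1 match for ETS and 1 for HNF1, and none of the 7 motifs was found in the window of Elf3. No match of one motif overlapped a match of another. Of 32841 promoters of this length, 3.84% held CAAAGTC, 9.81% TTTATNG, 9.99% AGATAA, 6.93% CACACCC, 23.4% CCCGCCC, 29.5% AGGAAG and 6.43% GTTAAT. A match is a run of letters and not a measured binding site.

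Between 27804968 and 40101729 reads were counted per culture. Levels are given as CPM, which are counts scaled to library size with TMM factors, and groups were compared by edgeR's quasi-likelihood test on the counts, with adjustment over all genes tested. The targeted gene, Myo5b, was at 160, 230, 191 and 176 CPM in control cultures 1 to 4, at 135, 109, 170 and 101 in MYO5BΔIEC, at 139, 153, 173 and 136 in MYO5B(G519R) and at 149, 106, 87.2 and 101 in treated MYO5BΔIEC cultures. Set against control, these groups had log2 fold changes of -0.55 ± 0.19 (SE), -0.33 ± 0.14 and -0.77 ± 0.19, with edgeR adjusted p values of 0.0503, 0.109 and 0.0146, so that it passed the threshold of 0.05 in the treated cultures and not in the other groups. Without control culture 1 it passed in those as well (edgeR adjusted p = 0.0155 and 0.0286). It also passed with the length trend described further on removed (edgeR adjusted p = 0.00531 and 0.00818). Those fits shifted the median log2 fold change of all genes tested to -0.23 and -0.26 and called 24% and 25.6% of genes lower. They are therefore not read as further evidence of a loss. Control culture 1 stood apart from the other controls. Its log2 CPM correlated with them over genes at 0.936 to 0.938, against 0.973 to 0.975 among the others. Over 13545 genes it correlated at 0.946 with the mean of the other 3 controls. With the means of MYO5BΔIEC and MYO5B(G519R) it correlated more closely, at 0.953 and 0.957. Each other control correlated at 0.986 to 0.991 with the mean of the remaining controls. Mitochondrially encoded genes took 6.41% of its counts, 9.07% to 10.4% of those of the other controls and 4.16% to 6.63% of those of the MYO5BΔIEC and MYO5B(G519R) cultures. Values without this culture are therefore given beside the results.

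Per length of transcript, 9 of the 10 genes were well above 1 FPKM in control enteroids, where FPKM is the authors' count scaled to transcript length and to library size. The order of the control means was Hnf4a at 130 ± 6.44 FPKM (SD, n = 4), Elf3 at 103 ± 31.3, Hnf4g at 75.4 ± 24.8, Cdx1 at 69.3 ± 8.04, Cdx2 at 67.6 ± 8.20, Klf5 at 36.7 ± 11.6, Gata4 at 30.3 ± 4.43, Gata6 at 14.9 ± 2.69, Klf4 at 6.91 ± 1.93 and Maf at 0.998 ± 0.380. The ranges of neighbours overlapped from Hnf4a through Cdx2, and those of Klf5 and Gata4 overlapped, although Klf5 was above Gata4 in each control culture. Cdx2 and Klf5, Gata4 and Gata6, Gata6 and Klf4, and Klf4 and Maf did not overlap. Among the 1469 genes that the deposited annotation assigns to a transcription factor family, Hnf4a ranked 3, Elf3 7, Hnf4g 10, Cdx1 11 and Cdx2 12 in control enteroids. Hnf4g moved most in this order. It took place 3 of the 10 genes in control, place 5 in MYO5BΔIEC, at 54.6 ± 14.5 FPKM, and place 7 in MYO5B(G519R), at 37.0 ± 7.82 FPKM, where it ranked 35 among the annotated factors and its range overlapped that of Gata4. In the plot of levels by gene, 3 of its control points lie above all MYO5B(G519R) points.

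**Figure D1:**
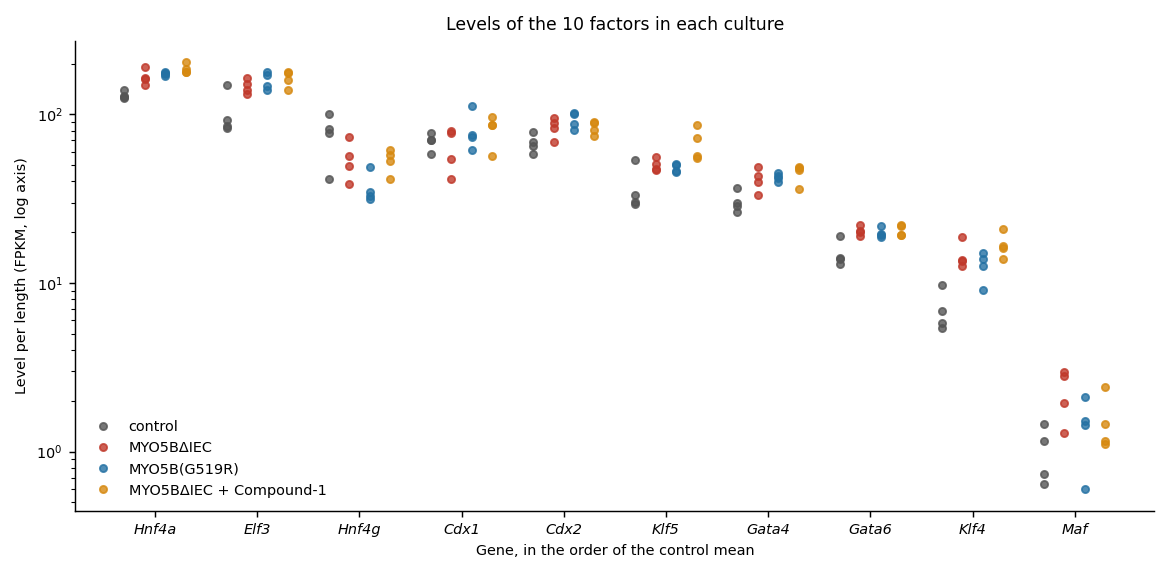
Level of each of the 10 genes in each culture in the authors' FPKM on a log axis, with genes in the order of their control means and 1 point per culture, coloured by group. Hnf4a is highest in every group, with control mean 130, and Maf lowest, with control mean 0.998; the MYO5B(G519R) points of Hnf4g lie below 3 of the 4 control points.

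Against control, 3 of the 10 genes passed the threshold in MYO5BΔIEC enteroids and 6 in MYO5B(G519R) enteroids. In MYO5BΔIEC, Gata6, Klf4 and Maf rose, and 27.4% of the 17951 genes tested passed in either direction (13.5% higher, 13.8% lower). In MYO5B(G519R), Hnf4a, Cdx2, Gata4, Klf4 and Elf3 rose and Hnf4g fell, with 26.8% of the 17829 genes tested past the threshold (13.1% higher, 13.7% lower). Klf4 was thus the gene past the threshold in both (10.4% of genes tested in both were higher in both), and both comparisons share the control cultures. DESeq2 called 5 members in MYO5BΔIEC and 33.3% of genes. Of the annotated transcription factors tested, 30.3% passed in MYO5BΔIEC and 32.5% in MYO5B(G519R). The members' median log2 fold change was 0.42 in MYO5BΔIEC and 0.41 in MYO5B(G519R), beside -0.01 and -0.05 over all genes tested. In MYO5BΔIEC 3 of the 10 genes (Hnf4a, Gata6 and Klf4) and in MYO5B(G519R) also 3 (Hnf4a, Cdx2 and Gata4) were higher in every model culture than in every control culture, as were 13% and 13.6% of all genes tested. Without control culture 1, 8 genes passed in MYO5BΔIEC, all except Cdx1 and Cdx2, and 8 in MYO5B(G519R), all except Cdx1 and Maf, with 42% and 46.2% of all genes tested past the threshold. Leaving out control culture 4 or MYO5BΔIEC culture 2 left 1 gene in MYO5BΔIEC, and leaving out control culture 2, 3 or 4 or MYO5B(G519R) culture 1 or 2 left 2 genes in MYO5B(G519R), in fits that called 16.7% to 16.8% and 16.3% to 18.4% of all genes tested. In whole-culture RNA, fewer cells of a type and less RNA per cell cannot be told apart.

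**Figure D2:**
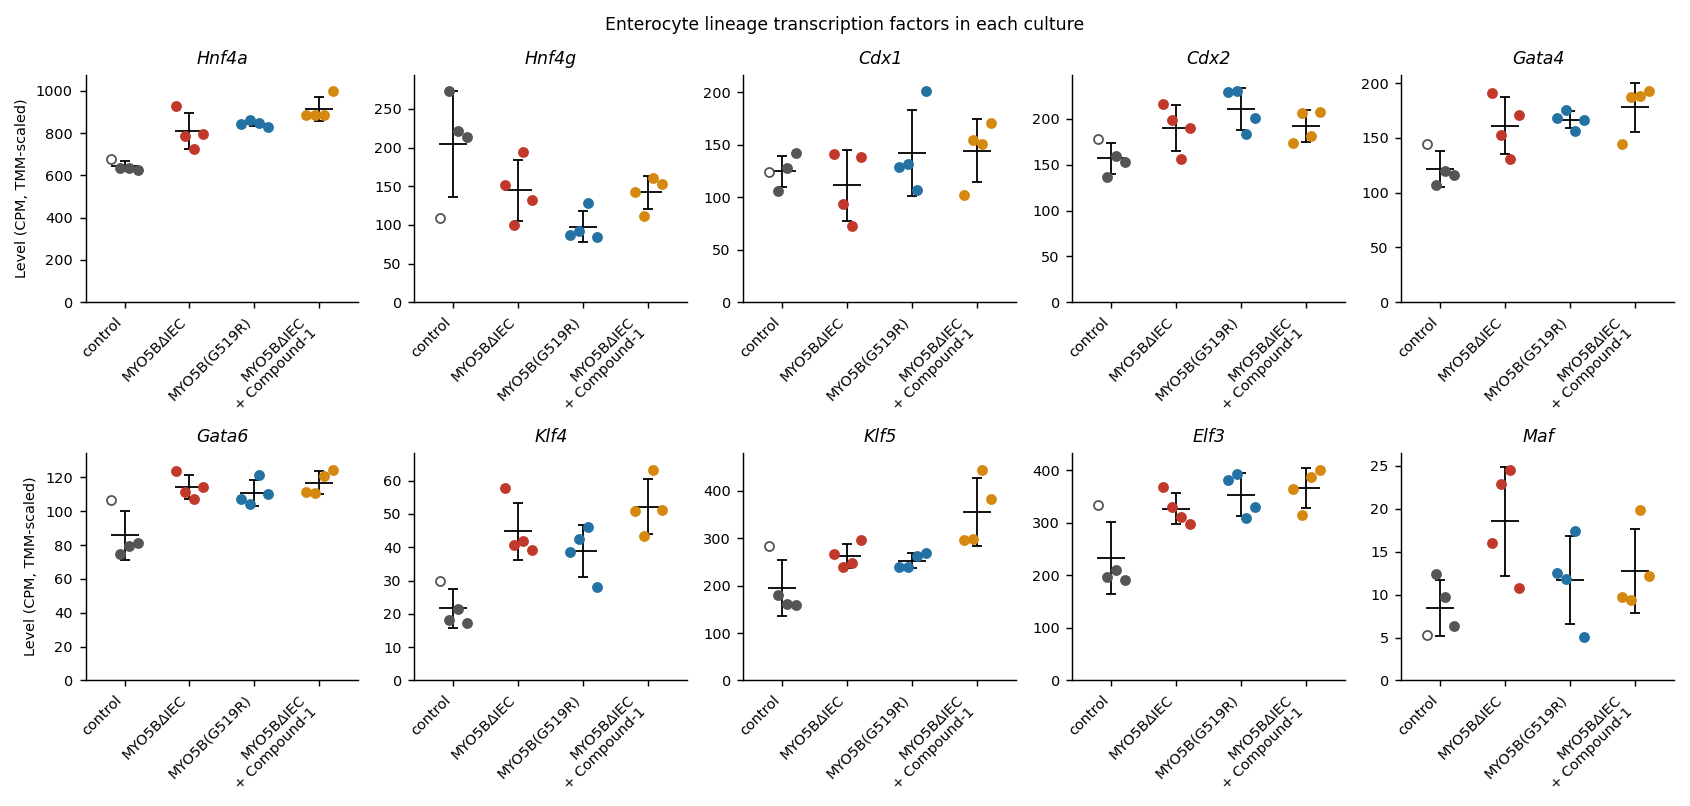
Level of each gene in each culture in TMM-scaled CPM, with 1 panel per gene, points for cultures 1 to 4 from left to right, and bars for the group mean ± SD (n = 4); the open circle is control culture 1. For Klf4 the control points lie at 17.2 to 29.8 and the MYO5BΔIEC points at 39.2 to 57.6, and for most genes the open circle sits away from the other controls towards the model cultures.

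The HNF4 pair passed in opposite directions in MYO5B(G519R), and with all controls neither gene passed in MYO5BΔIEC. Hnf4a (ENSMUSG00000017950, chromosome 2, 163506808 to 163572910, plus strand in GRCm38), the more abundant receptor, was at 679, 635, 635 and 626 CPM in control cultures 1 to 4, at 926, 787, 726 and 798 in MYO5BΔIEC and at 842, 862, 847 and 830 in MYO5B(G519R). All 8 model cultures lay above the 4 controls, and the MYO5B(G519R) cultures were the least variable group of any member, with a coefficient of variation of 1.54%. Hnf4a rose 1.31-fold in MYO5B(G519R) (log2 fold change 0.39, SE 0.11, edgeR adjusted p = 0.0268), a call kept in 3 of the 8 fits with 1 culture left out. Its log2 fold change of 0.34 in MYO5BΔIEC did not pass (SE 0.14, edgeR adjusted p = 0.101) and was 0.36 in the fit lacking control culture 1 (edgeR adjusted p = 0.0391). Hnf4g (ENSMUSG00000017688, chromosome 3, 3508030 to 3658052, plus strand), whose protein binds the same sites as HNF4A and can stand in for it in the intestine, was at 109, 273, 221 and 213 CPM in control, at 151, 100, 194 and 133 in MYO5BΔIEC and at 86.9, 91.8, 128 and 84.6 in MYO5B(G519R). Control culture 1 lay among the model cultures, while the other 3 controls lay above all 8 of them. Hnf4g fell 2.09-fold in MYO5B(G519R) (log2 fold change -1.06, SE 0.26, edgeR adjusted p = 0.0143), in all 8 fits that each left out 1 culture, and was the only member past the threshold in the downward direction with all controls. The MYO5BΔIEC value of -0.49 did not pass (SE 0.27, edgeR adjusted p = 0.204), but leaving out control culture 1 brought it to -0.70 (edgeR adjusted p = 0.0134).

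Of the CDX pair, Cdx2 passed in MYO5B(G519R) and Cdx1 in neither model. Cdx2 (ENSMUSG00000029646, chromosome 5, 147300805 to 147307270, minus strand), the factor that specifies intestinal epithelium, was at 179, 137, 159 and 153 CPM in control, at 216, 199, 156 and 190 in MYO5BΔIEC and at 229, 230, 183 and 201 in MYO5B(G519R). The MYO5B(G519R) cultures all lay above the controls, and the MYO5BΔIEC cultures overlapped them. Cdx2 rose 1.34-fold in MYO5B(G519R) (log2 fold change 0.43, SE 0.13, edgeR adjusted p = 0.0322), a call kept in 3 of the 8 fits with 1 culture left out, and had a log2 fold change of 0.29 in MYO5BΔIEC (SE 0.15, edgeR adjusted p = 0.169). Cdx1 (ENSMUSG00000024619, chromosome 18, 61018862 to 61036199, minus strand), a CDX paralog of crypt and villus cells, was at 124, 106, 128 and 142 CPM in control, at 141, 93.6, 72.7 and 138 in MYO5BΔIEC and at 129, 132, 107 and 201 in MYO5B(G519R). The groups overlapped, and the model cultures varied more among themselves than the controls, with coefficients of variation of 30.3% and 28.6% against 11.9%. Its log2 fold change was -0.16 (95% interval -0.62 to 0.31, edgeR adjusted p = 0.630) in MYO5BΔIEC and 0.19 (95% interval -0.23 to 0.60, edgeR adjusted p = 0.498) in MYO5B(G519R). Cdx1 was the one gene for which control culture 1 lay within the range of the other controls.

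Of the GATA pair, Gata4 passed as higher in MYO5B(G519R) and Gata6 in MYO5BΔIEC. Gata4 (ENSMUSG00000021944, chromosome 14, 63198922 to 63271692, minus strand), the factor that keeps jejunal genes on and ileal genes off, was at 145, 107, 119 and 116 CPM in control, at 191, 153, 131 and 171 in MYO5BΔIEC and at 168, 176, 156 and 167 in MYO5B(G519R). Apart from control culture 1, the controls lay below all 8 model cultures. Gata4 rose 1.37-fold in MYO5B(G519R) (log2 fold change 0.46, SE 0.12, edgeR adjusted p = 0.0192), a call that 3 of the 8 fits with 1 culture left out retained. Its log2 fold change of 0.42 in MYO5BΔIEC did not pass (SE 0.16, edgeR adjusted p = 0.0704), and control culture 1 left out made it 0.51 (edgeR adjusted p = 0.0125). Gata6 (ENSMUSG00000005836, chromosome 18, 11052508 to 11085635, plus strand), which overlaps GATA4 in function and is also expressed in the crypt, was at 107, 75.0, 79.6 and 81.5 CPM in control, at 124, 111, 107 and 114 in MYO5BΔIEC and at 107, 104, 121 and 110 in MYO5B(G519R). Control culture 1 alone reached the level of the models. Gata6 rose 1.34-fold in MYO5BΔIEC (log2 fold change 0.42, SE 0.14, edgeR adjusted p = 0.0461), a call that held in 1 of the 8 fits with a culture left out, the one without control culture 1 (edgeR adjusted p = 0.00166). The MYO5B(G519R) value of 0.37 did not pass with all controls (SE 0.13, edgeR adjusted p = 0.0605), while the fit lacking control culture 1 gave 0.53 (edgeR adjusted p = 0.000570).

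Among the other GATA factors, Gata5, a further factor of the gut epithelium, was at 24.7 ± 3.30 CPM (SD, n = 4) in control. It rose to 41.9 ± 4.05 CPM with MYO5B deleted (log2 fold change 0.77, edgeR adjusted p = 0.00450) and to 43.2 ± 8.82 CPM with the point mutation (log2 fold change 0.81, edgeR adjusted p = 0.00772). Zfpm1, which encodes the GATA cofactor FOG1, rose likewise from 76.0 ± 11.1 CPM to 147 ± 36.0 (log2 fold change 0.96, edgeR adjusted p = 0.00512) and 163 ± 14.4 (log2 fold change 1.10, edgeR adjusted p = 0.00183). In both cases every model culture was above every control culture. Of 6 listed GATA and FOG genes, 3 were tested in MYO5BΔIEC and all 3 rose, the last being Gata3, at 0.0243 CPM on average in control and 0.318 in MYO5BΔIEC, and both tested in MYO5B(G519R) rose. Gata1, Gata2 and Zfpm2 were too low to be tested.

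Klf4 rose in both models. Klf4 (ENSMUSG00000003032, chromosome 4, 55527143 to 55532466, minus strand), a factor of post-mitotic villus and goblet cells whose start site is shown above, was at 29.8, 18.2, 21.3 and 17.2 CPM in control, at 57.6, 40.5, 41.9 and 39.2 in MYO5BΔIEC and at 38.7, 42.5, 46.0 and 28 in MYO5B(G519R). All MYO5BΔIEC cultures lay above the controls, while MYO5B(G519R) culture 4 fell just under control culture 1. Klf4 rose 2.08-fold in MYO5BΔIEC (log2 fold change 1.06, SE 0.20, edgeR adjusted p = 0.00477) and 1.79-fold in MYO5B(G519R) (log2 fold change 0.84, SE 0.21, edgeR adjusted p = 0.0157), and both calls held whichever culture was left out. Klf5 (ENSMUSG00000005148, chromosome 14, 99298691 to 99315036, plus strand), the crypt-enriched member, was at 283, 179, 162 and 159 CPM in control, at 266, 239, 248 and 297 in MYO5BΔIEC and at 239, 240, 262 and 269 in MYO5B(G519R). The 8 model cultures lay above control cultures 2 to 4, and control culture 1 lay among them. Its log2 fold change of 0.43 in MYO5BΔIEC (SE 0.20, edgeR adjusted p = 0.125) and of 0.37 in MYO5B(G519R) (SE 0.19, edgeR adjusted p = 0.176) did not pass, and without control culture 1 the values were 0.66 (edgeR adjusted p = 0.00123) and 0.63 (edgeR adjusted p = 0.000368). Of 15 other KLF genes, 12 were tested in each model, 2 rose in MYO5BΔIEC and 3 in MYO5B(G519R), and none fell, while without control culture 1 6 rose in each. Klf6, a broadly expressed early response factor, was the one that rose in both, from 76.1 ± 13.8 CPM to 141 ± 14.8 and 117 ± 23.8 (log2 fold change 0.90 with edgeR adjusted p = 0.00301, and 0.62 with edgeR adjusted p = 0.0256).

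Elf3 (ENSMUSG00000003051, chromosome 1, 135253575 to 135258568, minus strand), an ETS factor needed for enterocyte maturation in the mouse, was at 334, 196, 211 and 192 CPM in control, at 368, 330, 312 and 299 in MYO5BΔIEC and at 383, 393, 309 and 330 in MYO5B(G519R). Control culture 1 lay among the model cultures, and the other controls lay below all of them. Elf3 rose 1.52-fold in MYO5B(G519R) (log2 fold change 0.60, SE 0.19, edgeR adjusted p = 0.0437), which held in 1 of the 8 fits with a culture left out, the one without control culture 1 (log2 fold change 0.86, edgeR adjusted p = 0.000230). The MYO5BΔIEC value of 0.50 did not pass with all controls (SE 0.19, edgeR adjusted p = 0.0800), while the fit lacking control culture 1 gave 0.72 (edgeR adjusted p = 0.000820). Of its 5 listed relatives, 4 were tested, 1 rose and 1 fell in each model. Elf4, an ETS factor better known from lymphoid cells, was at 29.5 ± 8.76 CPM in control and rose to 65.2 ± 7.08 with deletion and 54.8 ± 10.1 with mutation of MYO5B (log2 fold changes 1.15 and 0.89, edgeR adjusted p = 0.00283 and 0.0126). Ehf, an epithelial ETS factor of the same subfamily as Elf3, fell from 316 ± 25.4 CPM to 185 ± 55.3 and 206 ± 42.6 (log2 fold changes -0.77 and -0.62, edgeR adjusted p = 0.0165 and 0.0154). Elf3 and Ehf, both abundant in control enteroids, therefore differed from control in opposite directions in MYO5B(G519R).

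Maf (ENSMUSG00000055435, chromosome 8, 115682942 to 115707794, minus strand), the c-MAF gene, was the least abundant member, at 5.33, 12.4, 9.74 and 6.34 CPM in control cultures. The MYO5BΔIEC values were 16, 22.8, 24.5 and 10.8 CPM, those of MYO5B(G519R) 12.5, 11.9, 17.4 and 5.01 CPM. MYO5BΔIEC culture 4 overlapped the controls and the other 3 lay above them, while the MYO5B(G519R) cultures spread over the control range and beyond. Maf rose 2.20-fold in MYO5BΔIEC (log2 fold change 1.14, SE 0.32, edgeR adjusted p = 0.0241), in 5 of the 8 fits with a culture left out, with edgeR adjusted p values of 0.0123 to 0.0739. In MYO5B(G519R) its log2 fold change was 0.47 (95% interval -0.36 to 1.30, edgeR adjusted p = 0.381). The small MAF genes Maff, Mafg and Mafk, whose proteins lack an activation domain and pair with other leucine zipper factors, rose in both models. Mafk went from 26.2 ± 2.10 CPM in control to 42.3 ± 4.08 with deletion and 37.0 ± 3.9 with mutation of MYO5B (log2 fold changes 0.70 and 0.50, edgeR adjusted p = 0.00441 and 0.0137).

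**Figure D3:**
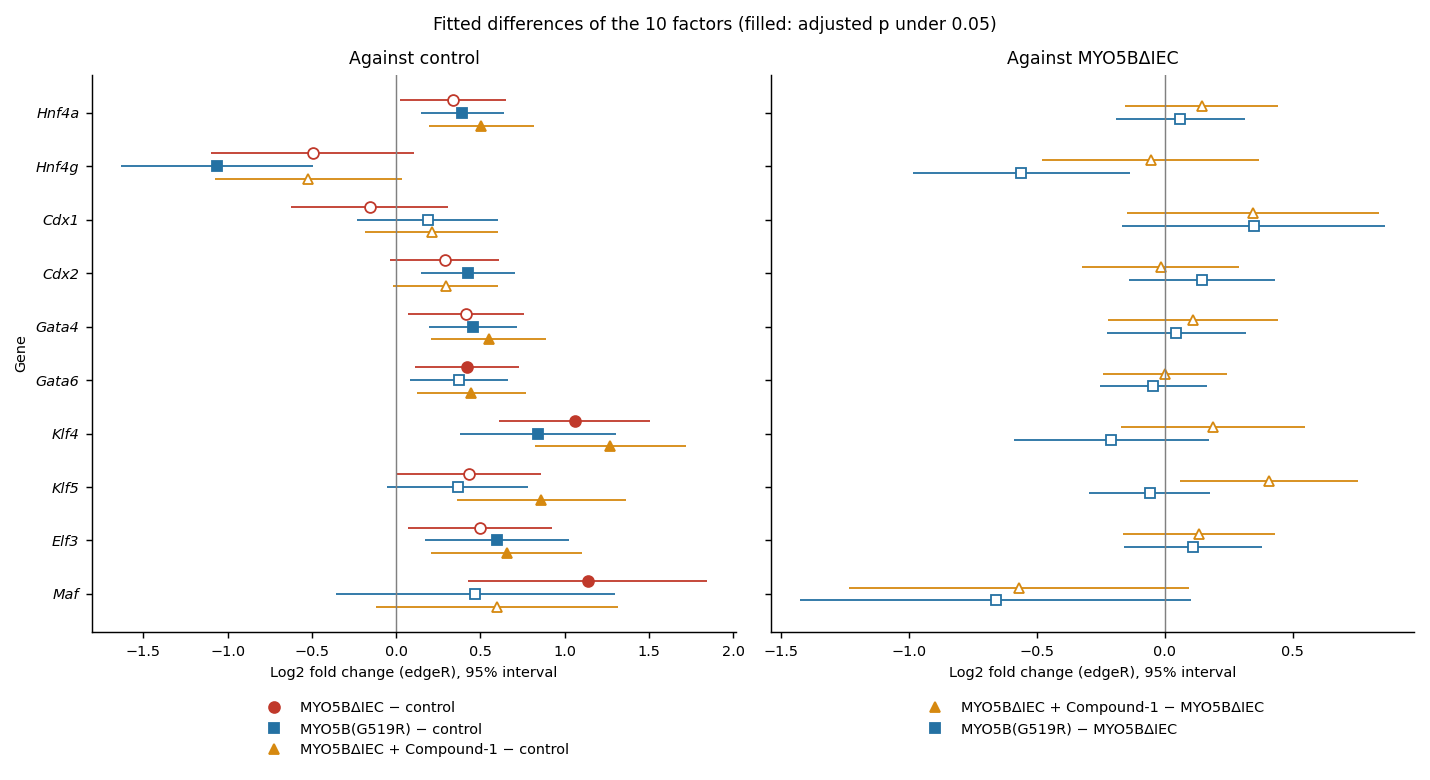
Fitted log2 fold change of each gene with its 95% interval, against control on the left and against MYO5BΔIEC on the right; filled symbols passed an adjusted p of 0.05. Against control most points lie to the right of 0, with Hnf4g to the left at -1.06 in MYO5B(G519R), and on the right no symbol is filled.

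MYO5BΔIEC enteroids with Compound-1 were compared with MYO5BΔIEC enteroids given vehicle, and none of the 10 genes passed the threshold. Here edgeR called 0 of 18037 genes (0%), with 1355 at an unadjusted p under 0.05, and DESeq2 called 91 (0.536%), none of them a member. Each member overlapped between these groups, and 2.86% of all genes did not. Klf5 showed the widest difference upward, at 266, 239, 248 and 297 CPM without and 296, 299, 445 and 383 with Compound-1. Treated cultures 3 and 4 were the highest of all 16, and culture 1 lay just under the highest untreated culture. The log2 fold change was 0.41 (95% interval 0.06 to 0.76, unadjusted p = 0.0261, edgeR adjusted p = 0.607). Maf was at 9.75, 9.40, 19.9 and 12.1 CPM in the treated cultures, a log2 fold change of -0.57 (95% interval -1.23 to 0.09, edgeR adjusted p = 0.734), and Cdx1 at 102, 154, 151 and 171 CPM, a log2 fold change of 0.34 (95% interval -0.15 to 0.84, edgeR adjusted p = 0.821). For the other genes the log2 fold change lay between -0.06 for Hnf4g and 0.19 for Klf4. The intervals were narrowest for Gata6, at -0.24 to 0.24, and widest for Maf, and those of Hnf4a (-0.15 to 0.44), Gata4 (-0.22 to 0.44) and Klf4 (-0.17 to 0.55) bound the change that these cultures could have missed.

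Against control, treated MYO5BΔIEC enteroids had 6 of the 10 genes past the threshold, all higher, beside 29.4% of 17937 genes tested (15.7% higher, 13.7% lower) and 33.6% of the annotated factors. Hnf4a was at 884, 886, 888 and 998 CPM, above every control culture and 1.42-fold control (log2 fold change 0.51, SE 0.14, edgeR adjusted p = 0.0227). Klf4, at 50.8, 43.4, 63.3 and 51.1 CPM, rose 2.41-fold (log2 fold change 1.27, SE 0.20, edgeR adjusted p = 0.00415), the strongest member here and the one called whichever culture was left out. Klf5 rose 1.82-fold (log2 fold change 0.86, SE 0.23, edgeR adjusted p = 0.0182). Elf3, Gata4 and Gata6 rose with log2 fold changes of 0.66, 0.55 and 0.45 (edgeR adjusted p = 0.0343, 0.0232 and 0.0418). Apart from Klf4, these calls held in 2 to 4 of the 8 fits with 1 culture left out. Hnf4g, at 143, 112, 161 and 153 CPM, did not pass, its log2 fold change being -0.52 (SE 0.25, edgeR adjusted p = 0.141), nor did Cdx2, at 174, 207, 181 and 208 CPM, its log2 fold change being 0.29 (edgeR adjusted p = 0.138). In 4 genes, Hnf4a, Gata6, Klf4 and Klf5, all treated cultures lay above all controls, as did 14.3% of all genes tested. Without control culture 1, 8 genes passed, Hnf4g downward, with 42.1% of all genes tested past the threshold. Without control culture 2, 3 or 4 or treated culture 4, 1 gene passed, and without treated culture 3, 2 genes, in fits that called 16.7% to 19.2% of all genes tested.

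The 2 models were also compared directly, and none of the 10 genes passed, where edgeR called 1 of 17943 genes (0.00557%) and DESeq2 4 (0.0223%). All 10 overlapped between the models, and 1.85% of all genes tested did not. Hnf4g came closest, with a log2 fold change of -0.56 in MYO5B(G519R) against MYO5BΔIEC (95% interval -0.98 to -0.14, unadjusted p = 0.0141, edgeR adjusted p = 0.838). Maf was lower by a log2 fold change of -0.66 (95% interval -1.43 to 0.10, edgeR adjusted p = 0.838). For Hnf4a the log2 fold change was 0.06 (95% interval -0.19 to 0.31) and for Gata4 0.05 (95% interval -0.23 to 0.32). A member that passed against control in one model and not in the other was therefore not shown to differ between the models.

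The balance within pairs of relatives was measured as the log2 ratio of FPKM within each culture, which does not depend on library size. The share of Hnf4g in the sum of Hnf4g and Hnf4a was 22.8%, 44.1%, 39.0% and 38.5% in control cultures 1 to 4. In MYO5BΔIEC it was 23.0%, 19.0%, 32.9% and 23.4%, and the MYO5B(G519R) cultures had 15.9%, 16.4%, 21.7% and 15.8%. Every MYO5B(G519R) culture was below every control, with control culture 1 at the level of the MYO5BΔIEC cultures. The mean log2 ratio was -0.86 ± 0.62 (SD, n = 4) in control and -2.26 ± 0.27 in MYO5B(G519R), 2.64-fold lower (two-sided exact permutation p = 0.0286, the smallest that 4 against 4 cultures can give, adjusted p = 0.190 over the 20 tests of 4 ratios in 5 comparisons). In MYO5BΔIEC it was -1.64 ± 0.45 (exact permutation p = 0.114, adjusted p = 0.254), and -1.82 ± 0.22 in treated cultures (exact permutation p = 0.0857, adjusted p = 0.254). Without control culture 1 these exact permutation p values were 0.0571 and 0.0286, the latter the smallest that 4 against 3 cultures can give.

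Klf5 made up a smaller part of the KLF pair in both sets of MYO5BΔIEC cultures. The log2 ratio of Klf5 to Klf4 was 2.48, 2.53, 2.15 and 2.44 in control and 1.44, 1.79, 1.80 and 2.15 in MYO5BΔIEC. It was 1.77, 2.01, 2.04 and 2.14 after Compound-1, and the MYO5B(G519R) cultures had 1.85, 1.73, 1.74 and 2.49. The untreated and treated MYO5BΔIEC cultures lay below all controls, and MYO5B(G519R) culture 4 lay within the control range. The margin was small, with untreated MYO5BΔIEC culture 4 at 2.148 and control culture 3 at 2.153. The difference from control was -0.61 without and -0.41 with Compound-1 (exact permutation p = 0.0286 in each, adjusted p = 0.190), and -0.45 in MYO5B(G519R) (exact permutation p = 0.114, adjusted p = 0.254). With control culture 1 left out, these exact permutation p values were 0.0571, 0.0286 and 0.143. The ratio of Gata6 to Gata4 stayed within a narrow range, with group means of -1.03 ± 0.06 for control, -1.004 ± 0.15 for MYO5BΔIEC, -1.11 ± 0.17 for MYO5B(G519R) and -1.12 ± 0.16 for treated cultures, and differences from control of -0.09 to 0.02 (exact permutation p = 0.371 to 0.800). That of Cdx1 to Cdx2 was 0.04 ± 0.17 in control and -0.45 ± 0.33 in MYO5BΔIEC (exact permutation p = 0.0571, adjusted p = 0.229). None of the 20 ratio tests passed after adjustment, and 3 had non-overlapping groups.

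**Figure D4:**
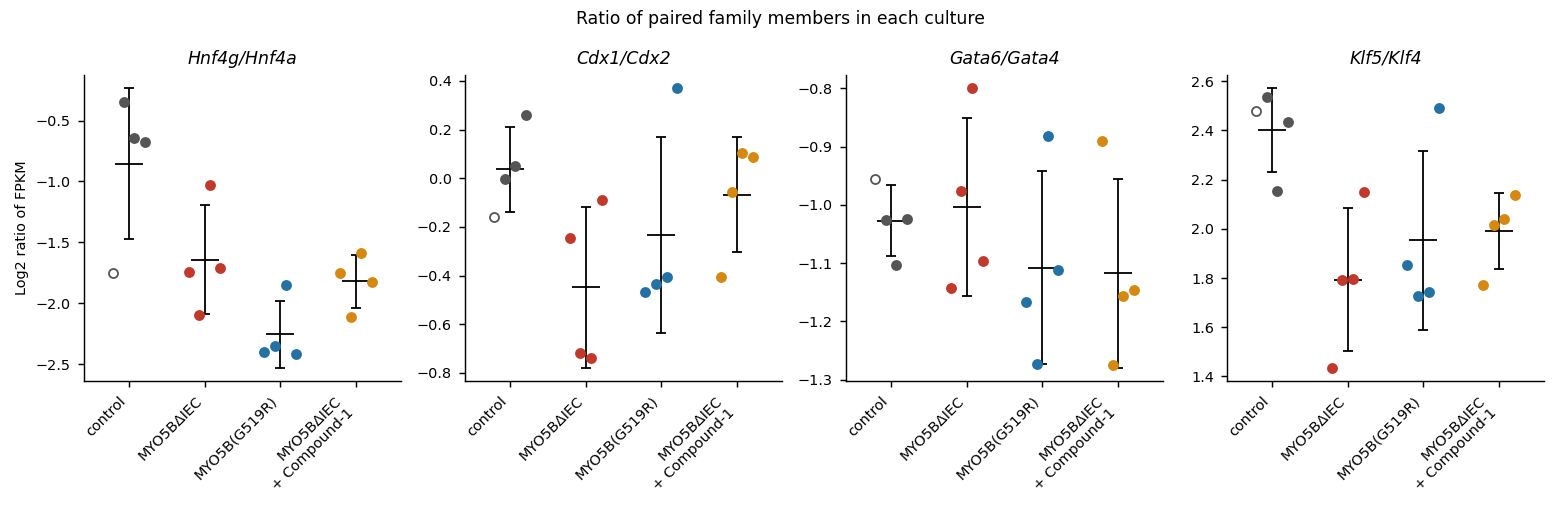
Log2 ratio of FPKM within each culture for 4 pairs of relatives, with points for cultures 1 to 4 from left to right, the open circle for control culture 1 and bars for the group mean ± SD (n = 4). Hnf4g relative to Hnf4a is lowest in MYO5B(G519R), at a mean of -2.26 against -0.86 in control, while Gata6 relative to Gata4 lies near -1 in every group.

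The position of control culture 1 touched most of these results. For 9 of the 10 genes it lay outside the range of the other 3 controls, and for 8 of those 9 within the range of the 8 cultures of the untreated models, the exception being Hnf4a. The share of all genes in these positions is not given here, so the counts are not read as particular to the members. A further fit removed each library's trend of expression on gene length, whose part in the differences was not tested otherwise. That trend was taken from log2 CPM without TMM factors, which the fit applied as well, so library scaling entered again. Values of this fit therefore do not isolate gene length. In it, the median log2 fold change of all genes tested shifted to -0.23 for MYO5BΔIEC, -0.26 for MYO5B(G519R) and -0.20 for treated cultures. Of all genes tested, 31.5% (7.54% higher, 24% lower), 32.5% (6.89% higher, 25.6% lower) and 32.4% (10.7% higher, 21.7% lower) then passed in these comparisons. The members' medians were then 0.13, 0.09 and 0.23, above those shifts. Klf4 alone passed in MYO5BΔIEC (log2 fold change 0.86, edgeR adjusted p = 0.00589), Klf4 and Hnf4g in MYO5B(G519R) (0.63 and -1.25, edgeR adjusted p = 0.0255 and 0.00518) and Klf4 and Klf5 in treated cultures (1.13 and 0.59, edgeR adjusted p = 0.00407 and 0.0312). Hnf4a, the most abundant, came to 0.00, 0.06 and 0.22. Maf in MYO5B(G519R), which had not passed, came to -0.01, and no other member turned its sign in a comparison with control.

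**Figure D5:**
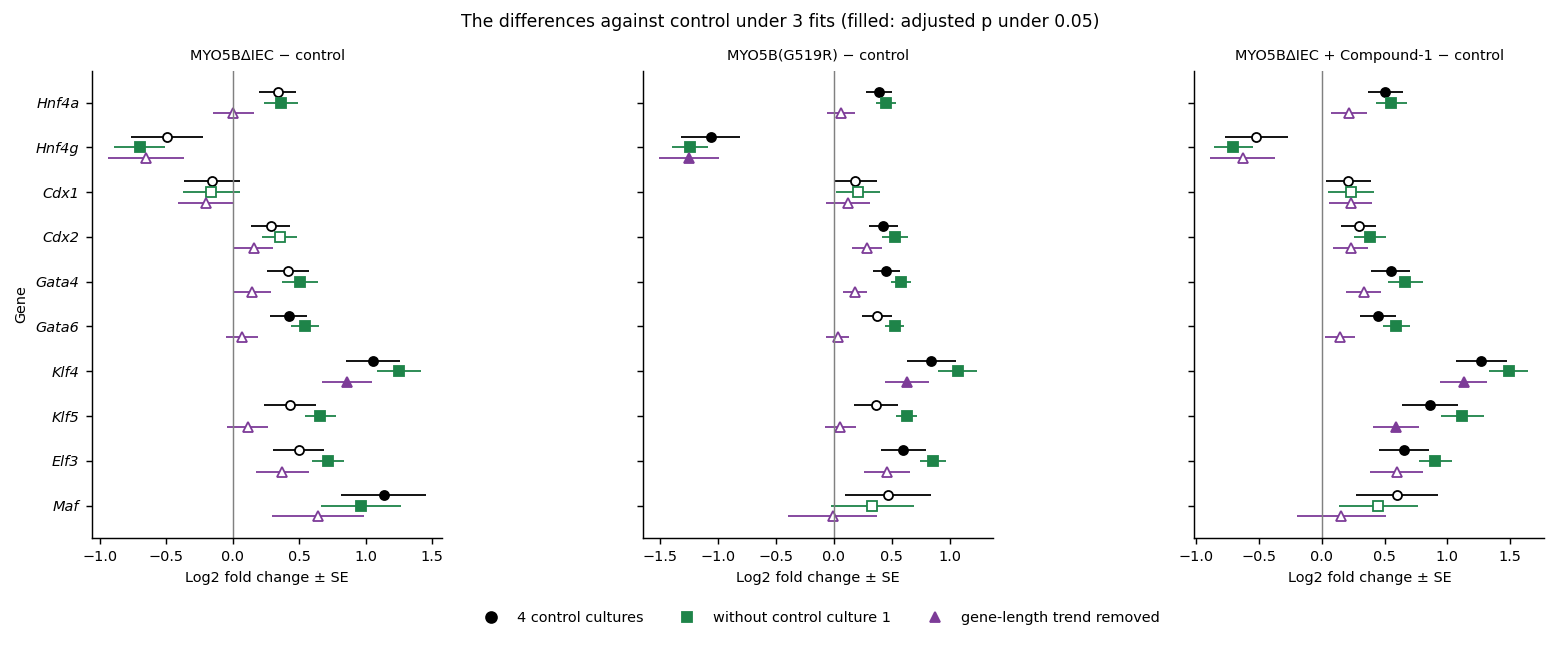
Log2 fold change ± SE of each gene against control in the 3 comparisons, from the fit with all 4 controls (circles), without control culture 1 (squares) and with the gene-length trend removed (triangles); filled symbols passed an adjusted p of 0.05. Klf4 is filled in all 9 fits, Hnf4g in MYO5B(G519R) in all 3, and in MYO5BΔIEC the squares lie farther from 0 than the circles for every gene but Maf. The triangles also carry the shift of all genes given in the text.

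The members were set beside other factors from lists. Of 25 other enterocyte transcription factors, 6 rose and 2 fell in MYO5BΔIEC and 5 rose and 2 fell in MYO5B(G519R), with medians of 0.21 and 0.19. Prdm1, which encodes BLIMP1, a repressor active in the postnatal maturation of the epithelium, rose from 1.48 ± 0.635 CPM to 3.80 ± 1.89 in MYO5BΔIEC (log2 fold change 1.36, edgeR adjusted p = 0.0366). Tcf7l2, the effector of Wnt signaling, rose from 36.4 ± 8.67 CPM to 68.4 ± 10.5 (log2 fold change 0.92, edgeR adjusted p = 0.00542). The falls were in Nr1h4, which encodes the bile acid receptor FXR, from 41.5 ± 3.20 to 27.4 ± 4.4 CPM (log2 fold change -0.59, edgeR adjusted p = 0.0136), and in Foxa3, a forkhead factor of endoderm, from 40.8 ± 4.93 to 28.7 ± 2.67 CPM (log2 fold change -0.50, edgeR adjusted p = 0.0227). Of 17 factors of other intestinal lineages, 1 rose and 1 fell in each model. These were Sox9, a factor of progenitor and Paneth cells, with a log2 fold change of 0.63 in MYO5BΔIEC (edgeR adjusted p = 0.0110), and Pou2f3, the tuft cell factor, with one of -1.04 (edgeR adjusted p = 0.0166). This list counted 3 higher and 1 lower in MYO5BΔIEC without control culture 1, and 3 higher and 0 lower in MYO5B(G519R). With the length trend removed, the other enterocyte factors counted 1 higher and 3 lower in MYO5BΔIEC, in a fit that called 7.54% of all genes higher and 24% lower. Cdx4, the remaining CDX gene, was too low to be tested.

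Genes known as targets of the members were counted as lists. Of 22 HNF4 targets, 9 rose and none fell in MYO5BΔIEC (median 0.57), and 9 rose and none fell in MYO5B(G519R) (median 0.08). The aminopeptidase gene Anpep rose from 166 ± 7.19 to 492 ± 109 CPM in MYO5BΔIEC (log2 fold change 1.58, edgeR adjusted p = 0.00140) and the protocadherin gene Cdhr5 from 129 ± 19.3 to 376 ± 47.1 CPM (log2 fold change 1.55, edgeR adjusted p = 0.00127). The summed level of the 22 genes was 4904 CPM in control culture 1, against at most 16900 in the other controls and 9027 to 16121 in the model cultures. Without control culture 1, 9 rose and 3 fell in MYO5BΔIEC and 9 rose and 6 fell in MYO5B(G519R). Of 11 tested CDX2 targets 4 rose in MYO5BΔIEC and 2 rose and 1 fell in MYO5B(G519R). They included Cdkn1a, a cell cycle inhibitor, at 146 ± 34.4 CPM in control and 472 ± 115 in MYO5BΔIEC (log2 fold change 1.70, edgeR adjusted p = 0.00148), and the alkaline phosphatase gene Alpi, at 317 ± 136 and 742 ± 132 CPM (log2 fold change 1.23, edgeR adjusted p = 0.0122). Of the gastric genes, which CDX2 holds down, 8 were tested, 2 rose and 1 fell in MYO5BΔIEC, and 2 rose in MYO5B(G519R). In control and MYO5BΔIEC, Cldn18 was at 0.668 ± 0.307 and 2.47 ± 1.07 CPM and Anxa10 at 57.7 ± 20.9 and 132 ± 19.1 CPM. Gkn3 was the gene that fell there, and Sox2 had no counts in either group. Of the 8 tested, 4 had a log2 fold change above 0 and 4 below 0 in MYO5BΔIEC. Of 6 ileal genes, which GATA4 holds down, 3 rose and none fell in each model, among them Fgf15 at 0.619 ± 0.783 CPM in control and 3.81 ± 1.73 CPM in MYO5BΔIEC (log2 fold change 2.61, edgeR adjusted p = 0.0198), and without control culture 1 the count was 3 higher and 2 lower in each. Of 6 proximal genes, 2 rose in MYO5BΔIEC and 1 in MYO5B(G519R), and none fell. Their summed level was 898 CPM in control culture 1, with a control median of 5324, and 2049 to 4763 in the MYO5BΔIEC cultures, and without control culture 1 the counts were 2 higher and 1 lower in MYO5BΔIEC and 1 higher and 2 lower in MYO5B(G519R).

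Markers of position and cell type were measured in the same libraries, and their part in the members' results was not tested. Of 9 villus tip genes 5 rose in each model, led by the adenosine deaminase gene Ada in MYO5BΔIEC (log2 fold change 2.15, edgeR adjusted p = 0.00149). Of 9 mid-villus transporter genes none passed in MYO5BΔIEC and 1 fell in MYO5B(G519R), and of 8 villus bottom genes 2 and 5 fell. Of 16 proliferation genes, 1 rose and 7 fell in MYO5BΔIEC, where their summed level was 2086 to 2920 CPM against 3087 to 3298 in control, and 2 rose and 3 fell in MYO5B(G519R), where it was 2590 to 3211 CPM. Epithelium markers summed to 7213 to 8917 CPM in control, with culture 1 highest, and to 11038 to 11691 in MYO5BΔIEC and 9645 to 12036 in MYO5B(G519R), and 6 and 4 of the 9 genes rose. Paneth cell markers summed to 3416 CPM in control culture 1, against at most 8173 in the other controls and 3269 to 4868 in the MYO5BΔIEC cultures, and 2 of 7 fell in each model. Of 14 enterocyte markers 2 rose in MYO5BΔIEC, and 1 rose and 2 fell in MYO5B(G519R). In treated MYO5BΔIEC cultures 2 rose and 5 fell against control. Goblet cell markers rose in 2 and fell in 2 of 7 in MYO5BΔIEC, and rose in 2 and fell in 3 in MYO5B(G519R). Enteroendocrine markers rose in 2 of 9 in MYO5BΔIEC (median 0.14), and rose in 1 and fell in 2 in MYO5B(G519R) (median -0.22). Tuft cell markers fell in 1 of 7, and stem cell markers rose in 1 and fell in 1 of 6, in each model. The tuft list summed to 75.8 CPM in control culture 1, where the control median was 29.9 CPM. It summed to 19.8 to 29.4 CPM in MYO5BΔIEC and 26.4 to 29.6 CPM in MYO5B(G519R). With that control culture left out, 1 tuft marker fell in MYO5BΔIEC and 0 in MYO5B(G519R). Stem cell markers then rose in 2 and 4, and fell in 1 in each model. Fetal and regenerative markers rose in 6 of 8 in MYO5BΔIEC and in 5 in MYO5B(G519R). Fibroblast markers summed to at most 0.956 CPM and endothelial markers to at most 1.35 CPM in any culture, with Col3a1, Dcn and Lum at 0 counts in every culture, and immune markers to 4.14 to 11.6 CPM. Without control culture 1, the falls numbered 5 of 7 in the Paneth list and 5 of 8 in the villus bottom list in MYO5BΔIEC, and 7 of 7 and 7 of 8 in MYO5B(G519R), where the enterocyte list had 1 rise and 8 falls of 14.

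The genes whose levels ran most like those of a member were found from the mean absolute difference of log2 CPM, each centred over the 16 cultures, among 10865 genes with a mean of at least 5 CPM. For Gata4 this was 0.04 to Hnrnpul2 and 0.06 to Psmd3, and for Gata6 0.04 to both Phf12 and Ubn1. Hnf4a ran closest to Ppp6r1 and Fbxw5 (0.06 each), Cdx2 to Impdh1 and Aph1a (0.05 and 0.06), and Elf3 to Fzr1 and Ccnk (0.07 and 0.08). Klf4, with larger differences between groups, was at 0.11 from Por, which went from 163 CPM in control to 352 in MYO5BΔIEC, and at 0.12 from B3gnt3. Hnf4g was at 0.13 from Lrrc19 and from Cyp2j6, which went from 582 CPM in control to 450 in MYO5BΔIEC and 332 in MYO5B(G519R). Maf had no close neighbour, with Gm9860 at 0.21 and Vasn at 0.23. These distances describe the 16 libraries, which the genes share.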

How the data were processed

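RNA from 16 enteroid cultures, 4 per group, was sequenced by the authors, who aligned reads with STAR 2.5 to GRCm38 and counted them per gene with HTSeq 0.6.1 according to their notes. The deposited values are raw counts and FPKM, and the handling of strand and of reads with several positions is not given in the sources used here, so reads shared by relatives cannot be judged. From the counts, edgeR 4.0.16 (R 4.3.3) fitted each pair of groups alone with TMM scaling and the quasi-likelihood test, on genes that reached 10 counts in 2 or more of the 8 libraries, with Benjamini-Hochberg adjustment over all genes tested, a threshold of 0.05 and 2-sided tests. Standard errors were the log2 fold change over the root of F. Levels are CPM with TMM over all 16 libraries. A count of 0 allows 0.0737 to 0.111 CPM, and intervals rest on the spread between cultures. FPKM, as deposited, served for levels between genes and for ratios within a culture, compared by a two-sided exact permutation test.

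Alternatives were DESeq2 1.42.0, limma 3.58.1 on log2(FPKM + 1) and log2(FPKM + 0.1), no filter or edgeR's own, 1 fit over all groups, a replicate block, removal of the trend on gene length, and leaving out each culture. The length trend was taken from log2 CPM without TMM factors, which that fit applied as well. The fits were tested on simulated data. Whether equal replicate numbers pair the cultures could not be settled from the counts. Deviations of same-numbered cultures from their group means correlated at -0.18 to 0.32, and no comparison had every pair over 0.1. The main fits therefore assumed no pairing. The members and lists were chosen with earlier results of these data known. Text names all members, up to 2 genes of a list that rose most and 2 that fell most among those past the threshold in MYO5BΔIEC with a mean of at least 1 CPM, paralogs past it in both models, and the 2 genes most like each member past it in either. Gata1, Gata2, Gata3, Zfpm2, Cdx4 and Sox2 were named after their values were seen. The result of 1 listed gene and the count of its family are not reported here.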

Additional observations from a re-analysis of the deposited data

Results flagged for a closer look

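In 9 of 56 sets of 4 values (the 10 genes and the 4 ratios in 4 groups), 1 culture lay apart from the other 3. The ratio of gap to range was then over Dixon's 95% limit, which chance passes in about 1 of 20 independent sets. These sets share cultures and genes, so their number cannot be set against that rate. The control cultures gave a pair of the 9, both culture 1. Klf5 was at 283 CPM there and at 159 to 179 in the other controls, and Elf3 at 334 CPM and 192 to 211. In MYO5BΔIEC, Klf4 was at 57.6 CPM in culture 1 and 39.2 to 41.9 in the others. In MYO5B(G519R), Hnf4g was at 128 CPM in culture 3 and 84.6 to 91.8 in the others, and the log2 ratio of Hnf4g to Hnf4a was -1.85 in the same culture and -2.42 to -2.35 in the others. Culture 4 of that group had a log2 ratio of Cdx1 to Cdx2 of 0.37, against -0.47 to -0.41, and of Klf5 to Klf4 of 2.49, against 1.73 to 1.85. In treated MYO5BΔIEC, Hnf4a was at 998 CPM in culture 4 and 884 to 888 in the others, and Gata4 at 144 CPM in culture 1 and 187 to 192 in the others.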

How the results depend on the processing

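Of 990 alternative values for the members and Myo5b, 861 kept direction and side of the threshold, 79 lost and 29 gained the threshold and 21 changed sign. Of 180 alternative values of the ratio differences, 5 changed sign and none passed the threshold, and 129 of 144 list counts stayed within 1.5 times that of the report. The number of members past the threshold against control changed most. The share of all genes tested that passed is given in brackets. In MYO5BΔIEC it was 3 (27.4%), but 5 with DESeq2 (33.3%), 6 in 1 fit of all 4 groups (31%), 1 with the length trend removed (31.5%) and 1 to 8 with 1 culture left out (16.7% to 42%). In MYO5B(G519R) it was 6 (26.8%), but 2 with the length trend removed (32.5%) and 2 to 8 with 1 culture left out (16.3% to 46.2%). In treated cultures it was 6 (29.4%), but 2 with the length trend removed (32.4%) and 1 to 8 with 1 culture left out (16.7% to 42.1%). With the replicate block it was 2, 4 and 3 (20.3%, 20.7% and 24.5%), the last against 6. Whether the replicate numbers pair the cultures is not known (correlations of -0.18 to 0.32). Klf4 passed with the block in all 3. The fit with the length trend removed also counted library scaling again, so its counts do not isolate gene length. The causes were not tested.

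The changes of sign were in log2 fold changes that had not passed. Against control in MYO5B(G519R), Maf was -0.0068 with the length trend removed and Cdx1 -0.0256 to 0.30 with a culture left out. Treated against untreated, Cdx2 was 0.0146 in 1 fit of all groups, 0.0157 with the length trend removed, 0.0052 and 0.0053 by limma with pseudocounts of 1 and 0.1, and -0.10 to 0.0456 with a culture left out. There, Gata6 was -0.0039 with no filter, -0.0046 with edgeR's own filter and -0.0282 to 0.0376 with a culture left out, and Hnf4g -0.19 to 0.12. Between the models with a culture left out, Gata4 was -0.0298 to 0.14 and Klf5 -0.0905 to 0.0046. Of the ratio differences with a culture left out, that of Hnf4g to Hnf4a was -0.33 to 0.0288 treated against untreated, Cdx1 to Cdx2 -0.17 to 0.0079 treated against control, Gata6 to Gata4 -0.0444 to 0.0700 in MYO5BΔIEC against control and Klf5 to Klf4 -0.0189 to 0.28 between the models.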
